A study of Mus musculus with 13 samples.

Results

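The Hox cluster genes are homeobox transcription factor genes, and 38 of them from the 4 mouse clusters were followed through chromatin immunoprecipitation sequencing (ChIP-seq) of neural stem and progenitor cells. Members were the gene body regions listed under their Entrez gene identifiers, together with the CpG islands and the regions the table calls IS that overlap such a body or the 2 kb before its start. The table listed 20689 gene bodies, and 22 of the 38 Hox genes had one. Hoxa3, Hoxa9, Hoxa10, Hoxa13, Hoxb2, Hoxb3, Hoxb6, Hoxb7, Hoxb13, Hoxc4, Hoxc6, Hoxc11, Hoxd1, Hoxd9, Hoxd11 and Hoxd12 had none and were read through their islands and other rows.

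The cells came from cortices and ganglionic eminences of E14.5 mouse embryos and were grown as floating neurospheres to day 3 of passage 5. The Kat7 intact cells were Kat7+/+ NesCreT/+ and the Kat7 deleted cells were Kat7lox/lox NesCreT/+, so the Cre transgene, which is driven by nestin regulatory sequence, was present in the intact controls too. An antibody to lysine 14 acetylation of histone H3 (H3K14ac) was used on isolates of 4 intact and 3 deleted animals, and an antibody to the acetyltransferase KAT7 (also called HBO1) on isolates of 3 intact and 1 deleted animal, with 2 IgG libraries. The values analysed are 1 merged column of read counts and RPKM (reads scaled to the length of the region and to 1 read total per column) for each antibody. The sources used here do not say which of the libraries were merged, so genotypes were not compared, no replicate spread or p-value exists, and every interval given is an exact 95% interval that covers counting error only. No IgG column was used here, so no background level stands beside either antibody. The read total behind the RPKM, worked out from the deposited counts and RPKM, was 141734087 for H3K14ac and 134111848 for KAT7.

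Hox genes give cells their position along the head-to-tail axis. Within each cluster their order on the chromosome follows the order of their expression along the body, with paralog groups 1 to 4 at the anterior end and groups 9 to 13 at the posterior end. They are active in the hindbrain, spinal cord and trunk and are typically silent under Polycomb repression in the forebrain, the source of these cells. KAT7 is the catalytic subunit of a complex that acetylates H3K14, a mark found at active genes and more broadly over the genome.

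The coordinates are of mm10. HoxA was taken as 52162417 to 52260880 of chromosome 6, HoxB as 96194316 to 96368254 of chromosome 11, HoxC as 102921131 to 103036856 of chromosome 15 and HoxD as 74668225 to 74765142 of chromosome 2. HoxA lies on the minus strand and the other 3 clusters on the plus strand. The expression class that the table gives each gene body placed 8 of the 22 Hox bodies in Bottom, 14 in Other and 0 in Top; 36.4% of Hox bodies were thus in Bottom, against 5% of all gene bodies. The data behind the expression class are not described in the labels.

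The promoters shown here belong to the 4 Hox genes whose bodies had a KAT7 to H3K14ac ratio of 1.5 or more, Hoxa2, Hoxb8, Hoxd8 and Hoxd13, and to Hoxb1, the body with the lowest ratio. Each is the 250 bases before the RefSeq start (GRCm38.p6), written 5′ to 3′ on the strand of the gene, with every CG in capitals.
Hoxa2 (chr6:52164832-52165081, minus strand): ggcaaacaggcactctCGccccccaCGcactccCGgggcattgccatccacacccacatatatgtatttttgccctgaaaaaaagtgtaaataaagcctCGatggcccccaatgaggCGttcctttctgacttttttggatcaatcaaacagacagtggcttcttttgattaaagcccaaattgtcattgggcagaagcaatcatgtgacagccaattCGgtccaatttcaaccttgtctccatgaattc
Hoxb8 (chr11:96281655-96281904, plus strand): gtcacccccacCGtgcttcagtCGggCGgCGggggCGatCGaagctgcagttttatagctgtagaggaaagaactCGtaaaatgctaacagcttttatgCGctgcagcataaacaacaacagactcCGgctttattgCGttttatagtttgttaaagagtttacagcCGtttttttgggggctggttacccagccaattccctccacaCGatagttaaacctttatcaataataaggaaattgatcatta
Hoxd8 (chr2:74704365-74704614, plus strand): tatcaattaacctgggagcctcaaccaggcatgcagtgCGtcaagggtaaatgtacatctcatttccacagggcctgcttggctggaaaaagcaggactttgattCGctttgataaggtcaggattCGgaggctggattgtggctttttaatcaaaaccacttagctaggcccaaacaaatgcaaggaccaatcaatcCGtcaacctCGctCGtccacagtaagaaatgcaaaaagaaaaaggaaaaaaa
Hoxd13 (chr2:74667975-74668224, plus strand): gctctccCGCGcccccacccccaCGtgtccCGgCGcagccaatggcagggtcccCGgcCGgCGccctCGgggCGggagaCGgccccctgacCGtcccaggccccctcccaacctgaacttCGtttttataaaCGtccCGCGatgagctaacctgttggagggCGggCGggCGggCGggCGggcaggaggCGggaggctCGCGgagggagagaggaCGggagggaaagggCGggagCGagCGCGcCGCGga
Hoxb1 (chr11:96365508-96365757, plus strand): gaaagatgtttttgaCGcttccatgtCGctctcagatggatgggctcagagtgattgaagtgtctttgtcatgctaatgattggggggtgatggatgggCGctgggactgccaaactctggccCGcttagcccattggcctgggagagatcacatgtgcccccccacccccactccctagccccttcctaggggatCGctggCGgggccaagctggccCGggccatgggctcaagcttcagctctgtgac
The RefSeq start was the start of the body in the table for Hoxa2, Hoxb8 and Hoxb1, and lay 85 bases from it for Hoxd13 and 874 bases from it for Hoxd8. CG occurred 6 times in the Hoxa2 window, 12 times at Hoxb8, 6 times at Hoxd8, 31 times at Hoxd13 and 7 times at Hoxb1.

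Of the 38 genes, 22 had a RefSeq promoter entry, with 24 promoters among them. Their median count of CG was 12.5, against 6 over all 32851 promoters, and their median share of G and C was 58.6% against 52.4%. The other motifs were searched on both strands. The CCAAT box, CCAAT, was in 58.3% of Hox promoters and 33.8% of all; the GC box, GGGCGG, in 41.7% and 32.7%; the TATA motif, TATAAA, in 16.7% and 12.4%; and the Hox-Pbx form TGATNNAT in 16.7% and 7.68%. GGGCGG holds a CG, and TGATNNAT can hold one, so those counts overlap the count of CG; a match describes these letters only.

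Over Hox gene bodies, H3K14ac was lower than over most other genes, and KAT7 was lower by less, so that KAT7 stood high relative to H3K14ac. Of the 22 bodies, 17 shared no base with another listed body and held reads, and each of these had at least 50 reads over both antibodies. Their median H3K14ac was 0.307 RPKM (range 0.186 to 0.393), against 0.381 RPKM over 15629 other gene bodies and 0.380 RPKM over the 3629 of them that were 1501 to 8000 bases long, the length range of the Hox bodies. Their median KAT7 was 0.367 RPKM (range 0.296 to 0.546), against 0.399 RPKM over all the others and 0.406 RPKM in the same length range. H3K14ac lay below the median of gene bodies in 16 of 17 members, with the interval wholly below it in 12. KAT7 lay below its median in 12 members, with the interval wholly below in 6 and wholly above in 3.

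**Figure D1:**
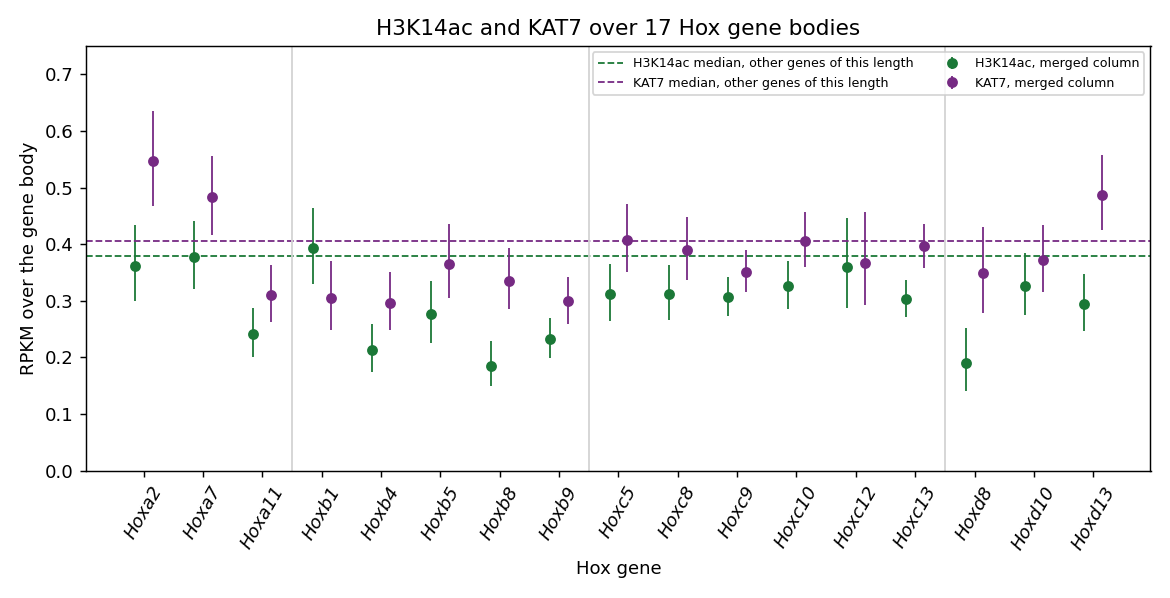
RPKM of H3K14ac (green) and KAT7 (purple) over each of 17 Hox gene bodies, grouped by cluster from HoxA at the left to HoxD at the right; bars are exact 95% counting intervals and dashed lines the medians of 3629 other gene bodies of 1501 to 8000 bases. Green points lie below the green line in 16 of 17 genes, while purple points fall on both sides of the purple line.

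The KAT7 to H3K14ac ratio had a median log2 value of 0.37 over the 17 bodies, against 0.06 over the other gene bodies and 0.10 in the same length range. From summed reads the ratio was 1.29 (95% interval 1.22 to 1.35). A ratio of at least 1.5 was found in 4 of 17 Hox bodies, against 0.901% of all gene bodies and 2.55% of those in the length range. The interval lay wholly above 1 in 13 of 17 (34.4% of all bodies, 24.2% in the length range) and wholly below 1 in 0 of 17 (9.09% of all bodies, 4.96% in the length range). H3K14ac under the median of gene bodies divided by 1.5 was found in 5 members, Hoxa11, Hoxb4, Hoxb8, Hoxb9 and Hoxd8, against 1.29% of all gene bodies; KAT7 was under its own such limit in 0 members, against 1.09%.

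**Figure D2:**
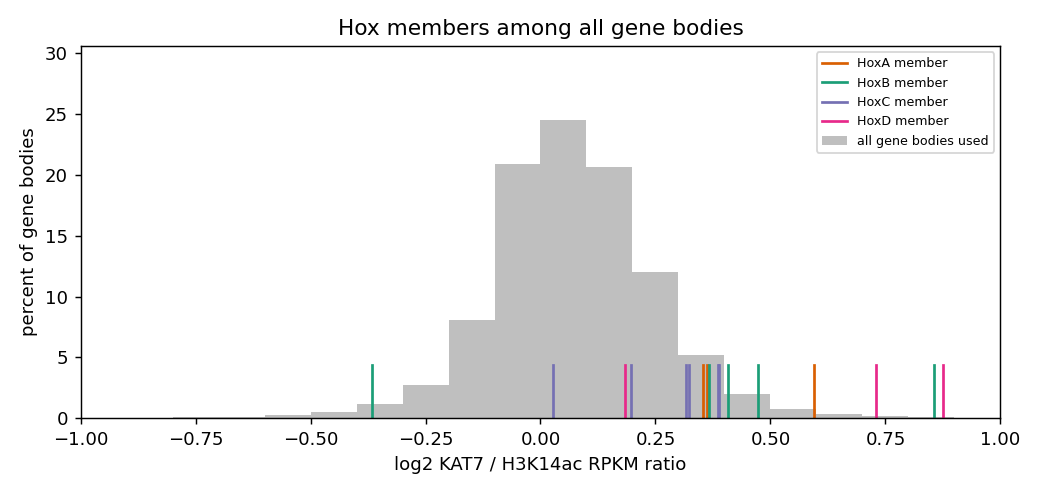
Distribution of the log2 KAT7 to H3K14ac RPKM ratio over all gene bodies used (grey bars, percent of bodies per bin) with 1 coloured tick for each of the 17 Hox members. The members' median is 0.37, and 1 member, the green tick at the far left, is Hoxb1.

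CpG islands are dense in the clusters, and the ratio moved with island content in other genes. Bodies of 1501 to 8000 bases with no base in an island had a median log2 ratio of -0.000597 (1632 bodies), those with up to 20% of their bases in islands 0.18 (1512 bodies), and those with over 20% 0.19 (485 bodies). Among the Hox members, Hoxa2 had no island base, 7 bodies had up to 20% with a median log2 ratio of 0.32, and 9 had over 20% with a median of 0.39. A ratio of at least 1.5 was reached by 10.7% of the other bodies with over 20% in islands and by 2 of the 9 Hox bodies, Hoxb8 and Hoxd8. Median H3K14ac of those 9 Hox bodies was 0.276 RPKM against 0.386 RPKM in the other bodies of that class. What island content contributes beyond this grouping was not tested.

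The anterior members were Hoxa2, Hoxb1 and Hoxb4. Hoxa2, which patterns the second branchial arch and hindbrain, had 119 H3K14ac and 170 KAT7 reads, or 0.362 RPKM (0.300 to 0.433) and 0.546 RPKM (0.467 to 0.635). That was the highest KAT7 level of the 17, above 95.3% of gene bodies, and its ratio was 1.51 (1.19 to 1.92). Hoxb1, the gene of rhombomere identity in the hindbrain, had 139 and 102 reads, or 0.393 RPKM (0.330 to 0.464) and 0.305 RPKM (0.249 to 0.370). It was the member with the most H3K14ac and the only one with more H3K14ac than KAT7, at a ratio of 0.776 (0.595 to 1.01). Hoxb4, known for its role in blood stem cells as well as in axial patterning, had 0.213 RPKM H3K14ac and 0.296 RPKM KAT7, a ratio of 1.39 (1.07 to 1.81). RefSeq places Hoxb4 inside the longer Hoxb3 gene, which had no body in the table.

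The central members were Hoxa7, Hoxb5, Hoxb8, Hoxc5, Hoxc8 and Hoxd8, genes that pattern the neck and thorax, and all 6 had a ratio whose interval lay above 1. Hoxb8 had the lowest H3K14ac of the 17, 90 reads or 0.186 RPKM (0.149 to 0.228), against 154 KAT7 reads or 0.336 RPKM (0.285 to 0.393), a ratio of 1.81 (1.39 to 2.37). Hoxd8 was close to it, with 49 and 85 reads, 0.190 RPKM (0.141 to 0.251) and 0.349 RPKM (0.278 to 0.431), and had the highest ratio of the 17 at 1.83 (1.28 to 2.66). The intervals of these paralogs overlapped in both antibodies, and RefSeq places Hoxd8 inside a predicted gene, Gm38462. Hoxc8, the third member of their paralog group, had 0.311 RPKM H3K14ac, above both intervals, and 0.389 RPKM KAT7, a ratio of 1.25 (1.01 to 1.55). Hoxa7 was high in both antibodies, at 0.378 RPKM and 0.483 RPKM, with a ratio of 1.28 (1.03 to 1.59). Hoxb5 had 0.276 RPKM and 0.366 RPKM, a ratio of 1.33 (1.01 to 1.74), and lies inside a RefSeq noncoding gene, Hoxb5os. Hoxc5 had 0.311 RPKM and 0.408 RPKM, a ratio of 1.31 (1.05 to 1.63).

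The posterior members were Hoxa11, Hoxb9, Hoxc9, Hoxc10, Hoxc12, Hoxc13, Hoxd10 and Hoxd13, genes of the lumbar to tail levels and, in HoxA and HoxD, of the limbs. Hoxd13, needed for digit formation, had 137 H3K14ac reads or 0.294 RPKM (0.247 to 0.348) and 215 KAT7 reads or 0.488 RPKM (0.425 to 0.557), a ratio of 1.66 (1.33 to 2.07). This ratio was above those of the other 7, which ran from 1.02 (0.743 to 1.40) at Hoxc12 to 1.31 (1.13 to 1.52) at Hoxc13, although its interval overlapped theirs. Hoxa11, another limb gene, had low levels of both antibodies, 0.241 RPKM and 0.310 RPKM, a ratio of 1.29 (1.01 to 1.64). Hoxb9 was similar, at 0.232 RPKM and 0.299 RPKM with a ratio of 1.29 (1.05 to 1.59). Hoxd10 was at 0.327 RPKM and 0.371 RPKM, a ratio of 1.14 (0.901 to 1.43), and Hoxc9 at 0.307 RPKM and 0.351 RPKM, a ratio of 1.15 (0.982 to 1.34). Hoxc10 was at 0.326 RPKM and 0.406 RPKM, a ratio of 1.24 (1.04 to 1.49). Hoxc13, a gene of hair and tail, was at 0.303 RPKM and 0.396 RPKM, and Hoxc12 at 0.360 RPKM and 0.367 RPKM.

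**Figure D3:**
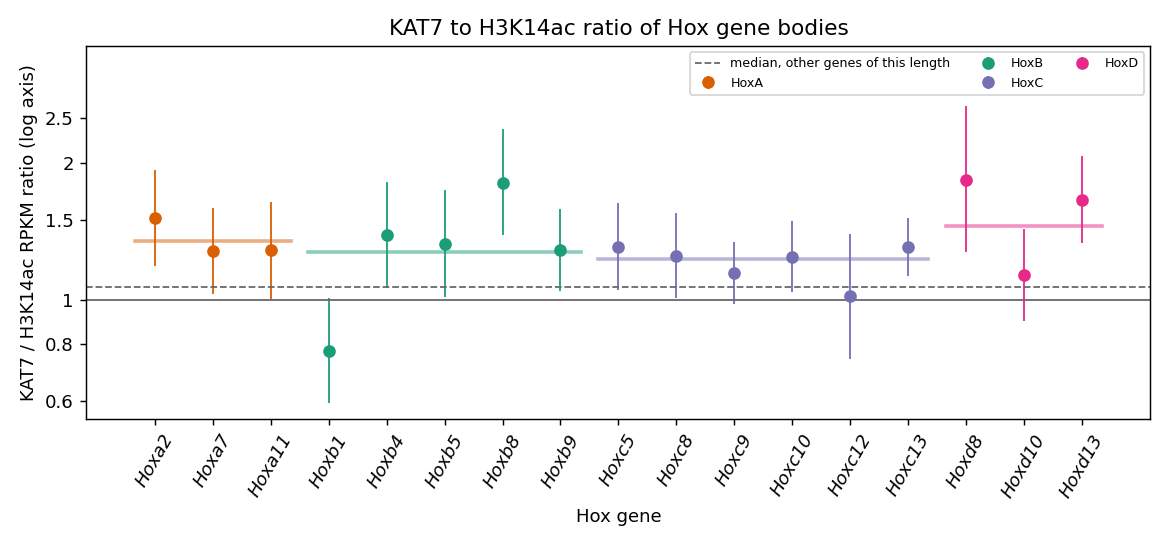
KAT7 to H3K14ac RPKM ratio of the 17 Hox gene bodies on a log axis, coloured by cluster, with exact 95% counting intervals; short horizontal bars are the ratios from summed reads of each cluster and the dashed line the median of other bodies of the same length range. Hoxb1 is the only member below 1, at 0.776, and Hoxb8, Hoxd8 and Hoxd13 are the highest.

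Among the clusters, HoxB had the lowest levels of both antibodies, and the ratios did not differ beyond their intervals. Summed H3K14ac was 0.318 RPKM (0.287 to 0.350) in HoxA, 0.249 RPKM (0.230 to 0.270) in HoxB, 0.313 RPKM (0.297 to 0.331) in HoxC and 0.284 RPKM (0.254 to 0.316) in HoxD. The HoxB interval did not reach those of HoxA or HoxC but overlapped that of HoxD. Summed KAT7 was 0.428 RPKM (0.392 to 0.467) in HoxA, 0.317 RPKM (0.294 to 0.341) in HoxB, 0.385 RPKM (0.366 to 0.405) in HoxC and 0.413 RPKM (0.376 to 0.452) in HoxD. HoxB lay below the other 3 clusters in KAT7. The HoxD levels leave out Hoxd3, which had 0.246 RPKM H3K14ac and 0.312 RPKM KAT7 per base not shared. Over the islands of the whole spans, H3K14ac was 0.327 RPKM in HoxB, 0.315 RPKM in HoxA, 0.361 RPKM in HoxC and 0.292 RPKM in HoxD. Island KAT7 was lowest in HoxB, at 0.392 RPKM. Over the IS rows of the spans HoxD was lowest in both antibodies, at 0.338 RPKM and 0.506 RPKM. The ratios were 1.35 (1.18 to 1.54, 3 genes) in HoxA, 1.27 (1.14 to 1.42, 5 genes) in HoxB, 1.23 (1.14 to 1.33, 6 genes) in HoxC and 1.45 (1.26 to 1.68, 3 genes) in HoxD, and all 4 intervals overlapped. The order of the ratios rests on single genes: HoxD was at 1.31 without Hoxd13 and at 1.31 with Hoxd3 added per base not shared, both below HoxA, and at 1.70 without Hoxd10, while HoxB was at 1.42 without Hoxb1.

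Anterior and posterior members showed no single direction: over all members the intervals of posterior over anterior spanned 1, and within clusters or with Hoxd3 added some did not. Summed H3K14ac was 0.310 RPKM (0.279 to 0.344) over the 3 anterior bodies, 0.281 RPKM (0.261 to 0.302) over the 6 central and 0.295 RPKM (0.280 to 0.310) over the 8 posterior ones, and posterior over anterior was 0.949 (0.846 to 1.07). Summed KAT7 was 0.370 RPKM (0.335 to 0.408), 0.390 RPKM (0.366 to 0.416) and 0.371 RPKM (0.354 to 0.388), and posterior over anterior was 1.00 (0.900 to 1.12). Within HoxA, Hoxa11 was below Hoxa2 in both antibodies, with an H3K14ac ratio of 0.666 (0.514 to 0.863) and a KAT7 ratio of 0.567 (0.452 to 0.709). Within HoxB, Hoxb9 over the 2 anterior genes was 0.800 (0.654 to 0.976) in H3K14ac, and 0.996 (0.823 to 1.20) in KAT7. HoxC and HoxD had no anterior body free of overlap, so the comparison over all members sets anterior genes of HoxA and HoxB against posterior genes of all 4 clusters, and position and cluster cannot be told apart there. With Hoxd3 added, per base not shared, posterior over anterior became 1.13 (1.05 to 1.22) in H3K14ac, and 1.14 (1.07 to 1.22) in KAT7. These 2 values rest mostly on Hoxd3, with 1015 H3K14ac and 1216 KAT7 reads over 29096 bases not shared. The other 3 anterior bodies held 360 and 406 reads over 8186 bases.

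5 bodies were set aside. Hoxd4 lies wholly inside the listed Hoxd3 body and was listed at 0 reads, and Hoxd3 counted per base not shared with Hoxd4 had 0.246 RPKM H3K14ac and 0.312 RPKM KAT7, a ratio of 1.27 (1.16 to 1.38). Hoxa4, Hoxa5 and Hoxa6 were listed at 0 reads although no other listed gene body overlaps them; the RefSeq Hoxa3 gene spans all 3, and whether reads were lost to such an overlap was not tested. Reads are present there: the island at the Hoxa5 start held 61 H3K14ac and 86 KAT7 reads, and a row of the class the table calls Pseudogenes that coincides with Hoxa5 in 99.0% of bases held 132 and 184 reads, or 0.328 RPKM and 0.484 RPKM, a ratio of 1.47 (1.17 to 1.86). Such coinciding rows, chosen after seeing the data, also gave values for Hoxb13 (0.339 RPKM and 0.444 RPKM, ratio 1.31, 1.01 to 1.70) and for Hoxd1 (0.251 RPKM and 0.400 RPKM, ratio 1.59, 1.18 to 2.16). With these 3 the median log2 ratio was 0.39 over 20 genes.

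Islands in the Hox clusters showed the same order of the antibodies as the bodies, and the difference from other islands was largest in long islands. Islands cover up to 36.3% of the bases of a used Hox body, at Hoxc12, so islands and bodies are not independent. Some IS rows and windows before gene starts, given below, overlap these islands too. The rule gave 33 islands and the whole spans of the clusters 76. Of these 76, 61 had a ratio above 1 and 15 below (80.3% above, against 58.1% of 15534 islands), and the ratio from summed reads was 1.37 (1.29 to 1.45), against 1.06 over all islands. In the 17 islands of the rule with at least 50 reads the median log2 ratio was 0.57 against 0.08 over 10799 islands. There the ratio reached 1.5 in 7 of 17 (16.2% of all islands), with the interval above 1 in 8 (14.6%) and below 1 in 0 (8.74%). By length, the ratio from summed reads was 1.25 in the 34 Hox islands of up to 400 bases (1.08 over all islands of that length), 1.24 in the 22 of 401 to 700 bases (1.04), 1.52 in the 15 of 701 to 1200 bases (1.04) and 1.69 in the 5 longer ones (1.10). All 20 Hox islands over 700 bases had H3K14ac below the median of their length class, 16 had KAT7 below it, and 19 had a ratio above 1, against 59.4% of all 5298 islands over 700 bases.

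**Figure D4:**
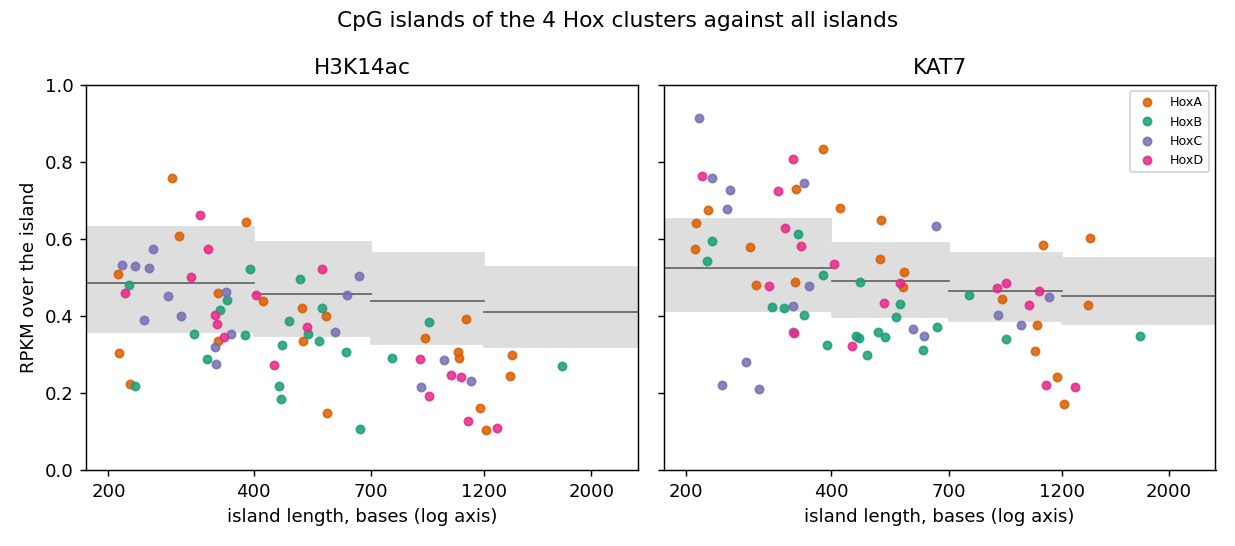
RPKM of H3K14ac (left) and KAT7 (right) against island length on a log axis for 76 CpG islands of the Hox clusters (points, coloured by cluster); grey boxes span the middle 50% of all islands in each length class and lines are their medians. To the right of 700 bases all 20 Hox islands lie below the H3K14ac line and 16 of 20 below the KAT7 line.

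Among the 33 islands of the rule, the highest ratios by the lower interval bound were in Hoxb8, near the 3′ end of Hoxd3 and in Hoxc5. The Hoxb8 island (chr11:96283989-96284651) held 10 H3K14ac and 33 KAT7 reads, or 0.107 RPKM and 0.372 RPKM, a ratio of 3.49 (1.68 to 7.93). A second island in the same gene (chr11:96282928-96283401) went the other way, with 26 and 19 reads and a ratio of 0.772 (0.404 to 1.45). The Hoxd3 island (chr2:74746371-74747291) held 25 and 60 reads, a ratio of 2.54 (1.57 to 4.22). The Hoxc5 island (chr15:103014200-103015327) held 37 and 68 reads, a ratio of 1.94 (1.28 to 2.98). The lowest of the 33 by the upper bound were an island in Hoxb1 (chr11:96365874-96366265), with 29 and 17 reads and a ratio of 0.620 (0.319 to 1.17), and the pair of Hoxc12 islands, at 0.766 (0.458 to 1.27) and 0.528 (0.196 to 1.31). The Hoxb1 body and this island share reads, and the second island of Hoxb1 held 15 and 16 reads, a ratio of 1.13 (0.522 to 2.45). Elsewhere in the clusters, outside the rule, an island in the RefSeq Hoxa3 gene (chr6:52175601-52176167) held 12 and 39 reads, a ratio of 3.43 (1.76 to 7.21), one between Hoxa11 and Hoxa13 (chr6:52252739-52254111) held 58 and 111, a ratio of 2.02 (1.46 to 2.83), and one between Hoxb13 and Hoxb9 (chr11:96251535-96252033) held 35 and 24, a ratio of 0.725 (0.412 to 1.25).

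10 islands held the start of a Hox gene with a listed body. Their median was 0.316 RPKM H3K14ac and 0.357 RPKM KAT7, against 0.456 RPKM and 0.487 RPKM over 7934 islands with 1 listed start. The ratio was highest at Hoxd8 (1.96, 1.11 to 3.56), Hoxd13 (1.91, 1.26 to 2.94) and Hoxa11 (1.75, 1.21 to 2.58) and lowest at Hoxc12 (0.766), Hoxb5 (0.888, 0.575 to 1.37) and Hoxd3 (0.928, 0.576 to 1.49). The last 3 intervals reach past 1.

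**Figure D5:**
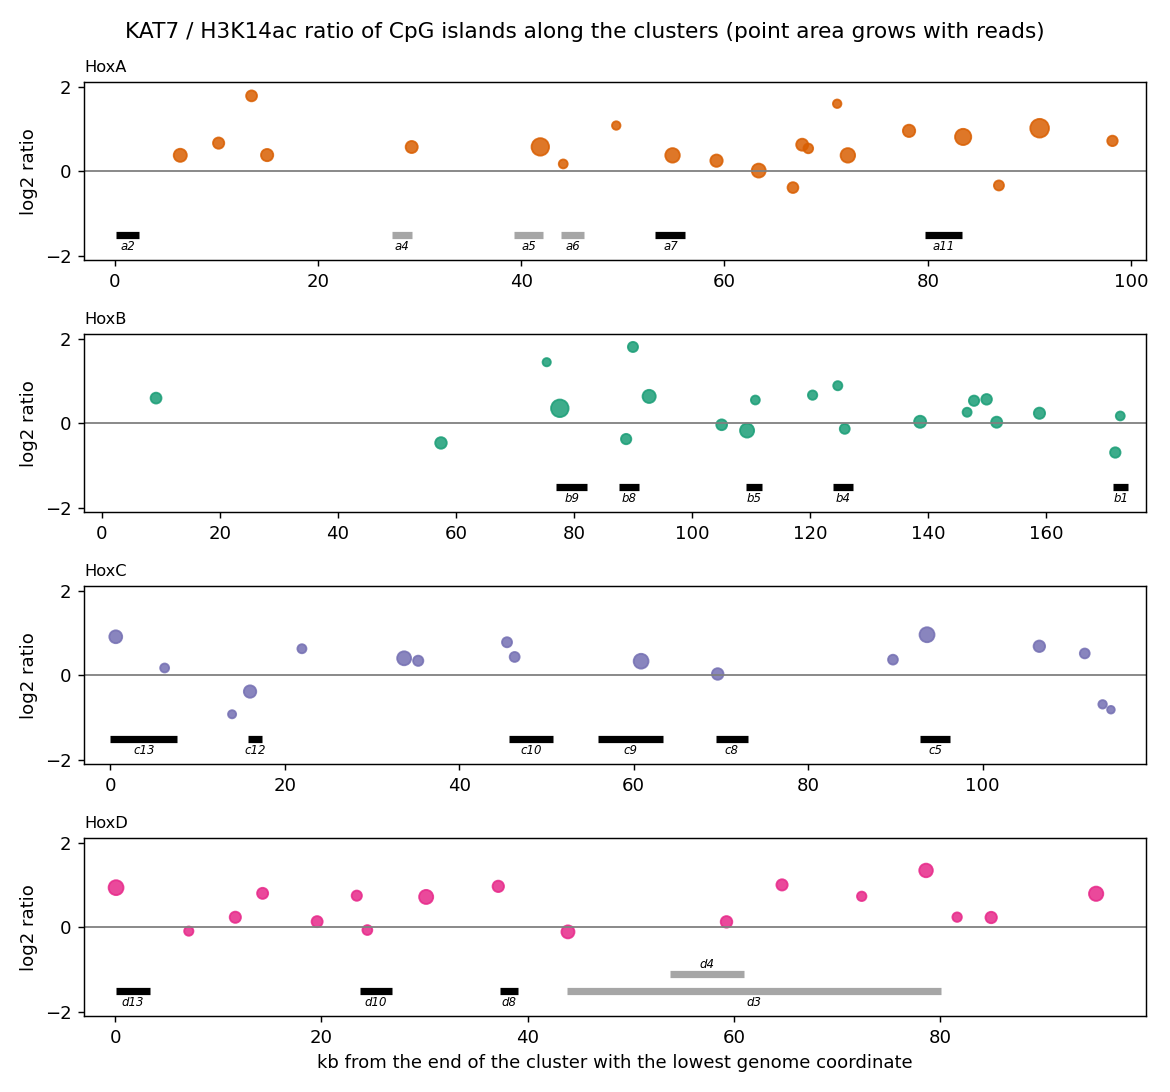
Log2 KAT7 to H3K14ac ratio of each CpG island (points, area growing with reads) along the 4 clusters, in kb from the end with the lowest coordinate; bars are listed gene bodies, black where used and grey where set aside, and letters name the gene. The anterior end is at the left in HoxA and at the right in the other clusters. Points above 0, 61 of 76, are found along each cluster; over all islands 58.1% are above 0.

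The 16 genes with no listed body were read through the islands over their RefSeq gene or the 2 kb before it. 15 of them had an island and Hoxb13 had none; the summed ratio was above 1 in 12 of the 15, and the interval lay above 1 in 6, against 58.1% and 13.9% of single islands without a filter on reads. 3 of these genes share islands with genes described above, and without the shared islands the interval lay above 1 in 4 of the 15. Hoxb7 had 42 H3K14ac and 80 KAT7 reads over 2 islands, a ratio of 2.01 (1.37 to 3.00), but one of these is the Hoxb8 island with the ratio of 3.49, and the other alone gave 1.55 (0.970 to 2.51). Hoxd1 was at 1.73 (1.13 to 2.70), Hoxa10 at 1.66 (1.23 to 2.25), Hoxd9 at 1.64 (1.06 to 2.57) and Hoxa3 at 1.55 (1.30 to 1.86). Hoxb3 was at 1.26 (1.02 to 1.54). Hoxa3 and Hoxb3 are long genes whose islands include some of Hoxa4 to Hoxa6 and of Hoxb4 and Hoxb5; without those they were at 1.66 (1.30 to 2.14) and 1.24 (0.972 to 1.58). The remaining ratios were 1.64 (0.878 to 3.16) at Hoxa13, 1.42 (0.957 to 2.13) at Hoxd11, 1.30 (0.915 to 1.86) at Hoxc11, 1.29 (0.661 to 2.56) at Hoxc6, 1.18 (0.670 to 2.08) at Hoxb2 and 1.13 (0.807 to 1.59) at Hoxc4. Hoxb6 at 0.976 (0.536 to 1.77), Hoxd12 at 0.939 (0.448 to 1.95) and Hoxa9 at 0.916 (0.647 to 1.29) lay on the other side of 1, with intervals across it. The Hoxa13 island had the lowest H3K14ac of all 76, 18 reads or 0.105 RPKM (0.0621 to 0.166), with 28 KAT7 reads or 0.172 RPKM (0.114 to 0.249).

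The windows of 2 kb before the start could be read for 16 genes of the plus strand. Their median was 0.277 RPKM H3K14ac and 0.345 RPKM KAT7, against 0.381 RPKM and 0.410 RPKM over 9812 such windows, and H3K14ac was below that median in 16 of 16 and KAT7 in 12. The ratio was at least 1.5 in 5 (4.21% of all windows), with the interval above 1 in 6 (14.3%) and below 1 in 0 (3.06%). Hoxd10 was highest, with 73 H3K14ac and 134 KAT7 reads and a ratio of 1.94 (1.45 to 2.62), although the ratio of its body was 1.14. Hoxd3 was lowest at 0.908 (0.655 to 1.26), and Hoxb1 was at 0.973 (0.726 to 1.30). Hoxb4 had the lowest H3K14ac of these windows, 0.162 RPKM (0.119 to 0.216).

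IS rows are short, and none of the 43 of the rule held 50 reads, so they are given without that filter. The ratio from their summed reads was 1.29 (1.14 to 1.46), against 1.01 over all IS rows. The highest by the lower bound lay at the start of Hoxd13 (chr2:74668311-74668628), with 4 H3K14ac and 28 KAT7 reads, a ratio of 7.40 (2.59 to 29.0). It was followed by rows in Hoxa5, with 8 and 21 reads and a ratio of 2.77 (1.18 to 7.24), and in Hoxd4, with 4 and 14 reads and a ratio of 3.70 (1.16 to 15.4). The lowest by the upper bound lay in Hoxb1 (chr11:96365938-96366093), with 18 and 6 reads and a ratio of 0.352 (0.114 to 0.926), then before Hoxb1 at 0.556 (0.231 to 1.26) and in Hoxb9 at 0.581 (0.252 to 1.27). Of the 35713 rows called Enh, 0 lay in the spans of the clusters and 100 within 500 kb of them, 42 of these around HoxC.

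2 microRNA hairpins of the clusters lie in islands with reads of both antibodies. Their mature forms are given 5′ to 3′ from RefSeq with the seed, bases 2 to 8, in capitals, beside miR-196a and the miR-10 pair, whose hairpins overlap none of the islands or IS rows.
miR-196b-5p: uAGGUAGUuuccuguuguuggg
miR-196a-5p: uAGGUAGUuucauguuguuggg
miR-615-3p: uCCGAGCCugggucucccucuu
miR-10a-5p: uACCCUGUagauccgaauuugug
miR-10b-5p: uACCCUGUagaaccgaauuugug
miR-196a and miR-196b share the seed AGGUAGU, miR-10a and miR-10b share ACCCUGU, and miR-615-3p has a seed of its own. The miR-196 family is known to target Hox transcripts. Mir196b lies in an island between Hoxa9 and Hoxa10 (chr6:52229855-52230272) with 26 H3K14ac and 38 KAT7 reads, a ratio of 1.54 (0.914 to 2.65). Mir615 lies in the Hoxc5 island whose ratio was 1.94.

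Genes around the clusters lay nearer to the other gene bodies than to the Hox genes in the ratio. Among 43 other gene bodies within 500 kb the median was 0.370 RPKM H3K14ac and 0.407 RPKM KAT7, with a median log2 ratio of 0.12. That value was 0.06 over all gene bodies other than Hox and 0.10 over those of 1501 to 8000 bases. The interval lay above 1 in 15 of 43 (34.4% of all gene bodies), and 0 of 43 reached a ratio of 1.5 (0.901% of all gene bodies). The highest flanking ratio was 1.46 (1.33 to 1.61), at Ube2z near HoxB. The nearest listed genes were Skap2 at 1.09 (1.06 to 1.12) and Hibadh at 1.02 (0.986 to 1.06) for HoxA, Ttll6 at 1.00 (0.933 to 1.08) and Gm11529 at 1.03 (0.939 to 1.14) for HoxB, Calcoco1 at 1.03 (0.925 to 1.14) and D930007P13Rik at 0.892 (0.823 to 0.966) for HoxC, and Lnpk at 1.06 (1.01 to 1.11) and Mtx2 at 1.02 (0.972 to 1.08) for HoxD. These 8 genes are longer than any of the Hox bodies used. Inside HoxB, between Hoxb13 and Hoxb9, lie 2 rows of an H3K9me3 domain class, with ratios of 0.997 (0.878 to 1.13) and 1.01 (0.894 to 1.14); the other clusters hold none.

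Genes that work with Hox proteins or lie upstream of them were near the other genes. The Pbx, Meis and Pknox cofactors, which bind DNA together with Hox proteins, had a median log2 ratio of 0.07 over the 7 of 9 measured. A ratio of 1.5 was reached by 0 of these 7, against 0.901% of all gene bodies. The retinoic acid pathway, which sets Hox expression borders, was at 0.03 over 11 of 14, from 0.909 (0.873 to 0.947) at the receptor gene Rxra to 1.19 at the highest. The ParaHox and cluster-linked homeobox genes were at 0.13 over 4 of 8, with Gsx1, a ventral forebrain factor, at 1.39 (1.05 to 1.85) and Mnx1, a motor neuron factor, at 0.982 (0.805 to 1.20). Forebrain homeobox genes were at 0.34 over 9 of 14, close to the Hox median of 0.37. The interval lay above 1 in 7 of 9 (34.4% of all gene bodies), and 0 of 9 reached a ratio of 1.5 (0.901% of all gene bodies). Emx2, a cortical patterning gene, had 0.460 RPKM H3K14ac and 0.648 RPKM KAT7, a ratio of 1.41 (1.24 to 1.60). From summed reads the forebrain genes were at 1.16 (1.12 to 1.21), against 1.29 (1.22 to 1.35) for the Hox bodies. That sum includes Emx1, Lhx2 and Lhx6, of 16533, 18421 and 23456 bases, which are longer than the Hox bodies used. Their ratios were 0.980, 1.10 and 1.14. The forebrain genes within the length range of the Hox bodies ran from 1.17 at Otx2 to 1.41 at Emx2. Median H3K14ac of the forebrain genes, 0.358 RPKM, was above the Hox median of 0.307 RPKM. The microRNA and noncoding RNA genes of the clusters had 0 of 9 with a usable body.

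As a description of the columns, 5 of 7 neural stem cell markers had a median of 0.535 RPKM H3K14ac and 0.697 RPKM KAT7, the highest of the marker lists; 6 forebrain markers were at 0.400 RPKM and 0.479 RPKM. The median log2 ratios of these lists, 0.38 and 0.36, were close to the Hox value of 0.37. From summed reads the ratios were 1.19 (1.13 to 1.26) and 1.23 (1.16 to 1.30), against 1.29 (1.22 to 1.35) for the Hox bodies. These sums lean on single genes. Nes held 1129 of the 2363 H3K14ac reads of the stem cell markers, at a ratio of 0.999. The other stem cell markers ran from 1.18 at Fabp7 to 1.62 at Olig2. Lhx2 held 986 of the 2353 H3K14ac reads of the forebrain markers, at a ratio of 1.10. The other forebrain markers ran from 1.17 at Otx2 to 1.41 at Emx2. Dlx2, Emx2, Lhx2, Otx2 and Six3 are also in the forebrain homeobox list above, so the forebrain lists are not separate. In the other lists, 4 hindbrain and spinal cord markers were at 0.386 RPKM and 0.419 RPKM, 3 neuronal markers at 0.343 RPKM and 0.348 RPKM, and 3 markers of other tissues at 0.361 RPKM and 0.402 RPKM. The median log2 ratios of these 3 lists were 0.29, 0.17 and -0.02. ChIP signal at these genes does not measure their RNA. Of the 17 Hox bodies, the 7 marked Bottom in expression had a median log2 ratio of 0.36 and the 10 marked Other 0.39. The 239 other bodies of the same length range marked Bottom were at -0.05, but were not matched to the Hox bodies for island content. Each of the 7 Hox bodies held island bases, from 7.04% at Hoxc10 to 35.6% at Hoxb5. What island content contributes to this difference was not tested.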

How the data were processed

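Per the file headers, the authors deposited 1 table of genomic regions with a merged read count and a merged RPKM value for H3K14ac and for KAT7. The submitters' processing notes name Bowtie2, SAMtools, Picard, deepTools and featureCounts and the build mm10, with no role or version; the terms SC and gc in the column names are not explained. With 1 read total per column, recomputing RPKM from counts and region lengths matched the deposited value within 1e-06 in 100% of rows. That total was worked out from the same deposited RPKM, so the match shows only that 1 scale factor per column was used. Here, counts were used for exact Poisson intervals of RPKM and exact binomial (Clopper-Pearson) intervals of the KAT7 to H3K14ac ratio (Python 3.11.15, SciPy 1.17.1), checked on simulated data. The background was autosomal rows of a class that share no base with another row of it, at up to 5 RPKM and with at least 50 reads over both antibodies. Gene names were matched by Entrez identifier for 96.7% of 20689 gene bodies. All overlap-free members with reads are named, and islands and IS rows are named by the 3 highest lower and 3 lowest upper bounds of the ratio, with further rows named after their values were seen. The members and lists were chosen with earlier results of these data known. A check of promoter CG against the ratio is void, as 9 of the 17 Hox bodies have a promoter entry.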

Additional observations from a re-analysis of the deposited data

How the results depend on the processing

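Of 70 alternative values, 51 stayed within the 95% counting interval of the reported value (counts of genes within 1.5 times), 17 moved outside it and 2 reversed. Hox H3K14ac was 0.293 RPKM from summed counts, against 0.307 RPKM as the median. Leaving out 1 gene at a time gave HoxB 1.42 without Hoxb1, and HoxD 1.70 without Hoxd10 but 1.31 without Hoxd13, below HoxA at 1.35; HoxD was also 1.31 with Hoxd3 per unshared base. Posterior over anterior H3K14ac was 1.13 per unshared base with Hoxd3 added, 0.666 within HoxA, 0.800 within HoxB and 0.842 from medians. For KAT7 these were 1.14 per unshared base with Hoxd3 added, 0.567 within HoxA and 1.21 from medians. The island median log2 ratio was 0.38 over whole cluster spans. Dividing by the median ratio of all gene bodies gave log2 0.058 for the flanking genes, 0.0029 for cofactors, 0.27 for forebrain homeobox genes and -0.037 for the retinoic acid pathway, which reversed; summed counts gave 0.097, 0.032, 0.22 and -0.017, the last reversed. Under the division by the median ratio 3 Hox bodies had a ratio of at least 1.5, where 4 had it without. The share of all gene bodies past 1.5 was worked out only without the division, so no background stands beside the 3. The cause of the moved and reversed values was not tested. The IS filter of 50 reads and the Enh rows gave no value, and leaving out libraries was not run, since the columns are merged. No paired analysis was possible because the columns carry no replicates. Islands and IS rows with few reads have wide intervals, which limit what single elements show.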
